A study of Mus musculus with 6 samples.

Results

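The claudins described here are 10 genes of 1 family, Cldn1, Cldn3, Cldn4, Cldn5, Cldn6, Cldn7, Cldn8, Cldn10, Cldn12 and Cldn23, chosen by symbol from a table of mouse medullary thymic epithelium. They were 10 of 55385 genes counted, and all 10 were among the 28543 genes with enough counts to be tested. The choice was made by symbol, with earlier results of these data known. Claudins are small membrane proteins that bind claudins of the neighbouring cell, and their strands form the tight junction, the seal between epithelial cells. Some tighten the seal and others form pores for selected ions, so the mixture a cell makes sets what can pass between cells. In the thymus, Cldn3 and Cldn4 are known as marks of the epithelial lineage that gives rise to the medulla, where mature cells display proteins of other tissues to developing T cells.

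The 6 libraries were mRNA sequencing of sorted mature medullary cells, which the labels call mTEChi, from mice aged 4 to 5 weeks. The 3 control libraries (WT) carry the name P53-NoCre and the genotype P53-WT, and the other 3 (cKO) carry the genotype P53-cKO, a conditional deletion of Trp53, the gene of the transcription factor p53. The labels name no Cre driver, do not say whether the controls carry a floxed allele, and do not tell if the libraries are from different animals. The p-values therefore describe the spread among these 6 samples only, and part of that spread may be technical. Each library came from 75000 EpCAM-positive cells, so EpCAM itself was part of the selection. The comparison of cKO with WT asks how loss of p53 alters transcription in these cells.

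The deleted gene, Trp53, was counted 5351, 4837 and 5314 times in WT and 386, 361 and 369 times in cKO (log2 fold change −3.81, SE 0.0999, edgeR adjusted p = 5.76e-10), so every library matched its label. Totals lay between 45457892 and 50128045 counts. Markers of mature medullary cells were present in every library, with Aire, the regulator of tissue antigens, at 1201 to 1417 CPM (counts scaled to library size) in WT and 822 to 1160 in cKO (log2 fold change −0.32, adjusted p = 0.516), lower without overlap. Fezf2, another such regulator, was also lower without overlap, at 430 to 501 and 402 to 408 CPM (−0.16, adjusted p = 0.612). Of the 10 mature markers, 4 were above 0 and 6 below, with a median log2 fold change of −0.03. Of the same 10, 1 was higher and 2 lower without overlap, against 7.14% and 7.28% of all tested genes. The summed CPM of the 10 mature markers was 17749 to 19791 in WT and 17404 to 19953 in cKO, mostly H2-Aa and H2-Ab1, and 0 of the 10 was without counts. The part of Aire and Fezf2 in the claudin values was not tested.

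Cldn3 and Cldn4 are neighbours on chromosome 5, 39.28 kb apart. Their starts are shown because the pair marks the same lineage while only Cldn3 had groups that did not overlap. The sequences are the 250 bases before each annotated start, from RefSeq on GRCm38.p6, read 5′ to 3′ on the gene's own strand, chr5:134946935-134947184 on the minus strand for Cldn4 and chr5:134985964-134986213 on the plus strand for Cldn3. Capitals mark matches on either strand to an E-box (CAGGTG, or CACCTG on the other strand), the AP-1 motif (TGACTCA) and the GC box (GGGCGG, or CCGCCC on the other strand). No 2 of the marked matches overlap.
Cldn4: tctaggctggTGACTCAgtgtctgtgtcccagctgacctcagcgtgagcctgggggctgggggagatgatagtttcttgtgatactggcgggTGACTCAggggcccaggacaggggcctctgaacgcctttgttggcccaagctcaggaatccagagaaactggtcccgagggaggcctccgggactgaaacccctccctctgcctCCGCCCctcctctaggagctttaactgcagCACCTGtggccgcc
Cldn3: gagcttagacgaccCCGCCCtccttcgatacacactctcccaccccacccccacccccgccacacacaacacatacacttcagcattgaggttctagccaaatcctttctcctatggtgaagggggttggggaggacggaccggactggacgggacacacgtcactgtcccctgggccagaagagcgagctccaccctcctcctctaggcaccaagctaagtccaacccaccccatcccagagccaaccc
The Cldn4 window held AP-1 matches at 240 and 158 bases before the start, a GC box at 44 and an E-box at 14, while the Cldn3 window held 1 match, a GC box at 236. Both windows were rich in G and C, at 62% and 60.8%. Among all 32851 windows of this kind, over 250 bases, 17.2% held the E-box, 4.46% the AP-1 motif and 32.7% the GC box. RefSeq windows were found for 8 of the 10 claudins, 12 windows in all, with Cldn8 and Cldn23 unmatched. The E-box also occurred in windows of Cldn6 and Cldn7, in 3 of the 12 windows in all. The GC box occurred in 9 of the 12, with at least 1 for each of the 8 genes. A match to the p53 decamer, the 10-base unit of p53 response elements, occurred in 1 of the 12 windows, that of Cldn5, against 7.13% of all windows. The grainyhead motif (AACCGGTT) occurred in none of the 12, against 0.116%. These matches are letters in a window and no measurement of binding, and the motifs were chosen with the sequences in view.

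Per transcript length, 3 of the claudins described here made up most of the RNA of this set in these cells. Levels between genes are compared in TPM, a share of all transcripts that corrects for length. In WT, Cldn4 stood at 403 ± 12.3 TPM (SD, n = 3), Cldn7 at 211 ± 9.10 and Cldn3 at 111 ± 2.995. Cldn1 followed at 27.3 ± 2.15 TPM, Cldn23 at 14.9 ± 1.11, Cldn12 at 8.26 ± 0.353 and Cldn6 at 6.04 ± 1.13. The lowest were Cldn10 at 3.37 ± 0.238 TPM, Cldn5 at 2.65 ± 0.776 and Cldn8 at 1.66 ± 0.381. Among neighbours in this order, the WT ranges overlapped only for Cldn10 with Cldn5 and for Cldn5 with Cldn8. The widest step in the order was between Cldn3 and Cldn1, 4.07-fold in WT and 5.11-fold in cKO. In cKO the order was the same except that Cldn6 (8.59 ± 1.71 TPM) stood above Cldn12 (8.08 ± 0.692), with ranges that overlapped. Cldn4 lay above 98.9% of the tested genes by mean TPM, Cldn7 above 97.9% and Cldn3 above 95.9%, whereas Cldn8 lay above 27.7%. The order leaves out claudins outside this set, of which Cldn13 stood above Cldn3, at 184 ± 23.5 TPM in WT and 215 ± 32.6 in cKO.

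**Figure D1:**
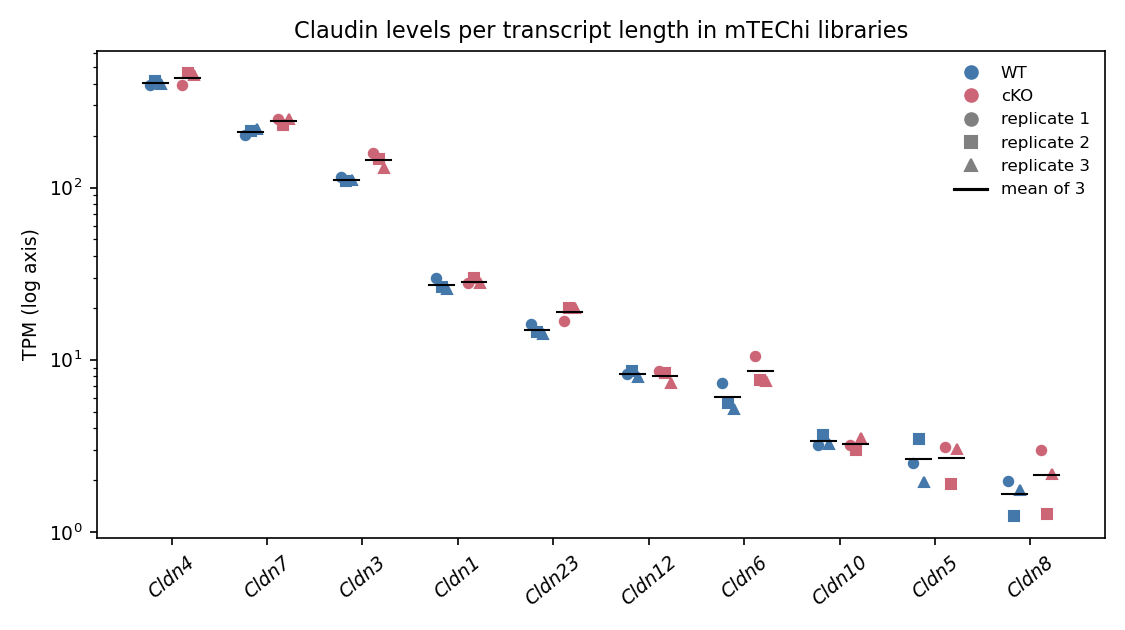
TPM of the 10 claudins in each library, on a log axis, ordered by the mean over all 6 libraries; blue is WT, red is cKO, the marker shape gives the replicate number and the bar the mean of 3 libraries. Cldn4, Cldn7 and Cldn3 stand apart at 109 TPM or more in every library, and Cldn8, Cldn6 and Cldn5 have the widest ranges relative to their level.

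None of the 10 claudins passed the threshold of adjusted p under 0.05 in either direction by edgeR's quasi-likelihood test, where 17 of 28543 tested genes did (0.0596%). The count was also 0 by DESeq2, by limma-voom and with the replicate number as a block, a fit that called 0.711% of all genes. At an unadjusted p under 0.05 there were 4 claudins higher in cKO, Cldn3, Cldn6, Cldn7 and Cldn23, and 0 lower, against 4.28% of all tested genes higher and 4.23% lower. The same 4 had 3 cKO libraries above all 3 WT libraries, against 7.14% of all tested genes, and 0 had the reverse, against 7.28%. Of the 10 log2 fold changes, 7 were above 0, and their median was 0.13. Over all tested genes 49.0% were above 0, with a median of −0.01. Because these are bulk samples, a shift in the share of cells that make a claudin and a shift in its RNA per cell cannot be told apart.

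Cldn3, a sealing claudin and a receptor of the Clostridium perfringens enterotoxin, had the smallest p of the 10. It (ENSMUSG00000070473, chromosome 5, 134986214 to 134987472, plus strand, mm10) is a single-exon gene whose start carries the window with 1 GC box shown above. Its level was 62.1, 62.5 and 61.7 CPM in WT replicates 1 to 3 and 86.9, 79.4 and 72.9 CPM in cKO replicates 1 to 3. The WT libraries lay closer together than the cKO libraries, and every cKO library was above every WT library. The fold was 1.28 (95% interval 1.13 to 1.47; log2 fold change 0.36, SE 0.0878), with an unadjusted p of 0.00129 and an edgeR adjusted p of 0.246. Over all alternatives the adjusted p ran from 0.0576 with DESeq2 to 0.843 without WT replicate 3, and it was 0.0586 with the replicate block. Leaving out cKO replicate 1, the highest library, gave a log2 fold change of 0.30. Exons of Wbscr25 cover 3.18% of the exon bases of Cldn3, and reads there were counted for both. Wbscr25 had a mean of 213 counts against 3373 for Cldn3, and its log2 fold change was 0.57 (adjusted p = 0.420), also without overlap between groups.

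Cldn4 limits the passage of sodium between cells and binds the same enterotoxin. The gene (ENSMUSG00000047501, chromosome 5, 134945119 to 134946934, minus strand, 1 exon) had 308, 345 and 322 CPM in WT and 309, 361 and 364 CPM in cKO. Replicate 1 was the lowest library of both groups, and the groups overlapped. The fold was 1.06 (95% interval 0.934 to 1.21, log2 fold change 0.09, SE 0.0853, adjusted p = 0.843), an interval that holds no change and leaves out a rise of more than 1.21-fold. Within libraries, the ratio of Cldn4 to Cldn3 TPM was 3.44, 3.83 and 3.62 in WT and 2.47, 3.15 and 3.46 in cKO. The lowest ratio was that of cKO replicate 1, the highest cKO ratio overlapped the WT range, and the 2-sided exact permutation p was 0.2, where 3 against 3 libraries can give no less than 0.1. In the log2 ratio of Cldn3 to Cldn4 the groups differed by 0.27, and by 0.13 without cKO replicate 1.

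Cldn7 is a claudin of the basolateral membrane that binds EpCAM. Cldn7 (ENSMUSG00000018569, chromosome 11, 69964779 to 69967885, plus strand) had 168, 189 and 190 CPM in WT and 212, 194 and 216 CPM in cKO. Every cKO library was above every WT library, with a gap between the groups smaller than the spread within either. The fold was 1.14 (95% interval 1.004 to 1.28, log2 fold change 0.18, SE 0.0817, adjusted p = 0.582). Cldn7 lies 372.906 kb from Trp53 on the same chromosome. Within 100 kb of Cldn7, 19 genes were tested, 9 had a log2 fold change above 0 and 0 were called, against 0.0596% of all tested genes.

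Cldn1 is required for the water barrier of the epidermis. Cldn1 (ENSMUSG00000022512, chromosome 16, 26356642 to 26371841, minus strand) had 62.0, 57.9 and 55.9 CPM in WT and 58.3, 61.7 and 59.9 CPM in cKO. The groups overlapped, and the fold of 1.02 had the 95% interval 0.902 to 1.16 (adjusted p = 0.954). Cldn23, a claudin known from colon and skin, lies on chromosome 8 (ENSMUSG00000055976, 35824712 to 35826559, minus strand, 1 exon). Its level was 12.9, 12.1 and 11.7 CPM in WT and 13.5, 15.8 and 16.5 CPM in cKO, with cKO replicate 1 just above the WT range and the other cKO libraries further up. The fold was 1.25 (95% interval 1.03 to 1.51, log2 fold change 0.32, SE 0.128, adjusted p = 0.527).

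Cldn6 is best known from embryonic epithelium. Cldn6 (ENSMUSG00000023906, chromosome 17, 23679249 to 23682446, plus strand) had 5.42, 4.38 and 3.99 CPM in WT and 7.89, 5.67 and 5.78 CPM in cKO, from 195 to 373 counts a library. Replicate 1 was the highest of its group in both, and the lowest cKO library exceeded the highest WT library by less than the spread within either group. The fold was 1.40 (95% interval 1.05 to 1.88, log2 fold change 0.49, SE 0.193, adjusted p = 0.522). Of its 25-base words 1.22% also occur in Cldn9, which is no member of the 10 and lies on the opposite strand with its 3′ end 138 bases from that of Cldn6. Strand was ignored in counting, so a read past the end of either gene could count for the other. Cldn9, a claudin of the inner ear, had 6.76, 4.42 and 6.24 CPM in WT and 12.5, 8.74 and 9.36 CPM in cKO. All 3 cKO libraries were above the WT libraries, with a fitted fold of 1.75 (log2 fold change 0.81, SE 0.194). Its edgeR adjusted p was 0.233, and Cldn9 did not pass. It was called higher with the replicate block (adjusted p = 0.0159), with DESeq2 (0.0160) and without a filter on low counts (0.0102), and in the other fits its adjusted p reached 0.703, without WT replicate 3. Among the further claudin genes it was the single one called in any of these fits.

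**Figure D2:**
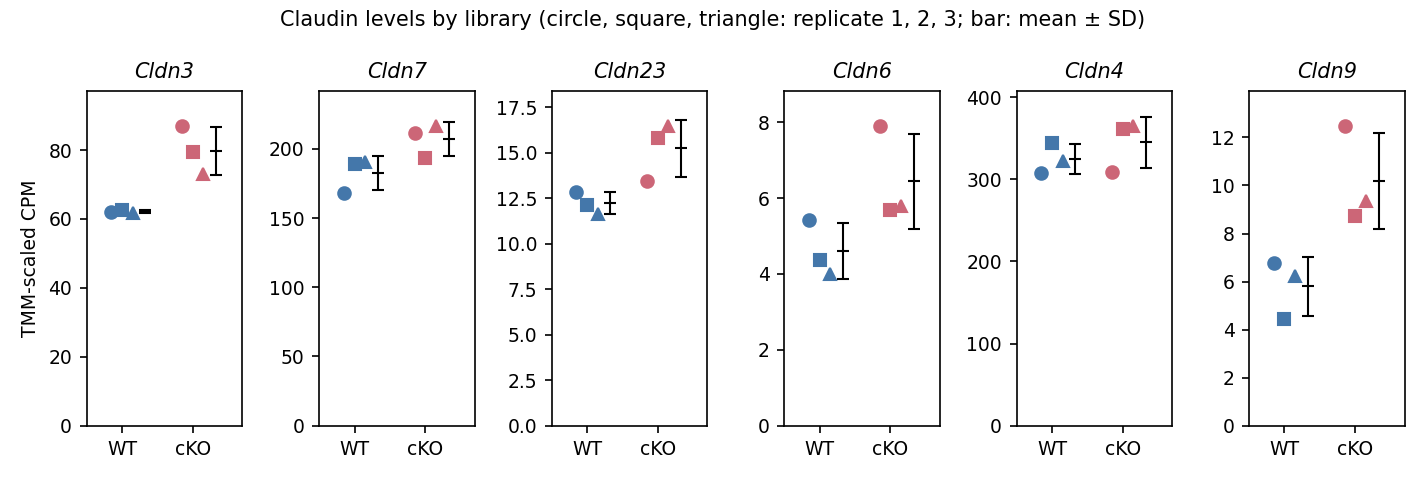
TMM-scaled CPM of Cldn3, Cldn7, Cldn23, Cldn6, Cldn4 and the neighbour Cldn9 by library, with the scaled axis of each panel starting at 0; circle, square and triangle are replicates 1, 2 and 3 and the bar is the mean ± SD of 3 libraries. The cKO libraries lie above all WT libraries in every panel except that of Cldn4.

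The groups of the remaining 4 claudins overlapped. Cldn12 lacks the tail motif by which other claudins bind their scaffold, and Cldn12 (ENSMUSG00000046798, chromosome 5, 5489537 to 5514958, minus strand) had 15.0, 16.6 and 14.9 CPM in WT and 15.8, 15.1 and 13.8 CPM in cKO (on the log2 scale −0.06, SE 0.120, adjusted p = 0.944). Cldn10, whose isoforms form ion pores in kidney and glands (ENSMUSG00000022132, chromosome 14, 118787908 to 118875489, plus strand), had 3.58, 4.29 and 3.76 CPM in WT and 3.62, 3.35 and 4.04 CPM in cKO (on the log2 scale −0.08, SE 0.187, adjusted p = 0.949). The counts are per gene, so its isoforms were not separated. Cldn8, which acts with Cldn4 in the kidney collecting duct (ENSMUSG00000050520, chromosome 16, 88560828 to 88563183, minus strand, 1 exon), had 2.02, 1.33 and 1.84 CPM in WT and 3.05, 1.28 and 2.28 CPM in cKO (0.35, SE 0.318, adjusted p = 0.824). Cldn8 rested on 59 to 144 counts a library, and its log2 fold change was 0.05 without cKO replicate 1.

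Cldn5 is the main claudin of blood vessels, where it seals the blood-brain barrier. Cldn5 (ENSMUSG00000041378, chromosome 16, 18776847 to 18778262, plus strand, 1 exon) had 1.54, 2.24 and 1.23 CPM in WT and 1.92, 1.15 and 1.8998 CPM in cKO, from 53 to 106 counts a library (on the log2 scale −0.01, SE 0.312, adjusted p = 0.998). The groups overlapped fully and the sign of this value changed with the settings. Its 95% interval, 0.623-fold to 1.59-fold, is too wide to show a difference of that size or less at this depth. The 11 endothelial markers summed to 87.7 to 103 CPM in WT and 80.2 to 86.1 CPM in cKO, lower without overlap, with 0 of the 11 at 0 counts in all libraries. Of the 10 tested, 0 were called, against 0.0596% of all tested genes. The part of these markers in the Cldn5 level was not tested.

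**Figure D3:**
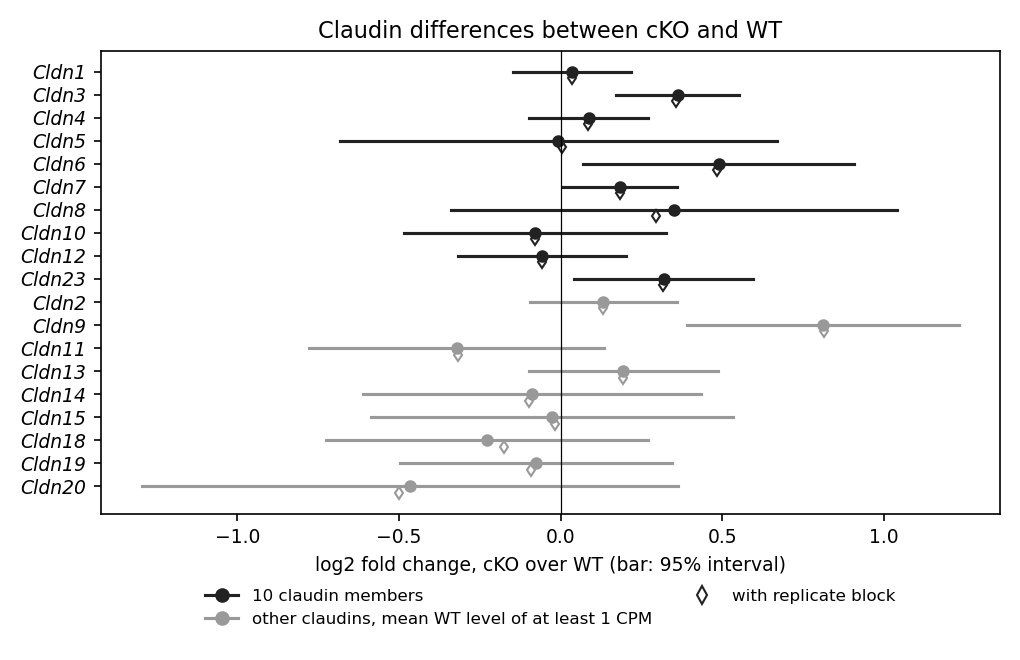
Log2 fold change of cKO over WT for the 10 claudins (black) and for other claudin genes with a mean WT level of at least 1 CPM (grey), with 95% intervals from edgeR; open diamonds give the value with the replicate block. The intervals of Cldn3, Cldn6, Cldn7, Cldn23 and Cldn9 lie above 0, those of the other genes include 0, and low genes such as Cldn5 and Cldn8 have the widest intervals among the 10.

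Summed over the 10 claudins, the level was 780, 803 and 786 TPM in WT and 875, 913 and 901 TPM in cKO. Every cKO library lay above every WT library, 790 ± 11.8 against 896 ± 19.4 TPM (SD, n = 3 each), a 1.13-fold difference. The 2-sided exact permutation p was 0.1, the smallest that 3 against 3 libraries can give, so this test cannot pass the threshold here. Cldn3, Cldn4 and Cldn7 together held 91.9% ± 0.658 of the sum in WT and 92.0% ± 0.269 in cKO. Cldn4 alone held 50.6%, 52.0% and 50.5% in WT and 44.8%, 50.7% and 49.996% in cKO, with the low value again in cKO replicate 1. Cldn3 held 14.7%, 13.6% and 14.0% in WT and 18.2%, 16.1% and 14.4% in cKO (exact p = 0.2, adjusted over the 10 shares 0.4). Without cKO replicate 1 the difference in the Cldn4 share went from −2.53 to −0.688 percentage points and that in the Cldn3 share from 2.14 to 1.17. The shares of Cldn1, Cldn10 and Cldn12 were lower in cKO without overlap, each with an exact p of 0.1 (adjusted 0.333). The TPM of each of these 3 genes overlapped between the groups, while the sum they are divided by was higher in cKO. Cldn1 held 3.46% ± 0.311 and 3.17% ± 0.0837, Cldn12 1.05% ± 0.0349 and 0.903% ± 0.0880, and Cldn10 0.427% ± 0.0237 and 0.362% ± 0.0300. The difference for Cldn1, −0.293 percentage points, was −0.113 without WT replicate 1.

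Other cell types and subsets of medullary cells could contribute claudin RNA, and some sums of their markers did not overlap between the groups. The 8 neuroendocrine mimetic markers, genes of medullary cells that take on an endocrine programme, summed to 483 to 575 CPM in WT and 596 to 616 CPM in cKO. The 8 secretory mimetic markers summed to 274 to 333 CPM in WT and 345 to 449 CPM in cKO. Both sums were higher in cKO without overlap, as was the summed TPM of the claudins. The sum of 11 other tight junction membrane genes was higher without overlap too (854 to 902 and 922 to 973 CPM). Among single tested genes, 7.14% were higher and 7.28% lower without overlap, shares that do not apply to sums over a list. The 7 cortical markers (1356 to 1536 and 1241 to 1327 CPM) and the 6 red cell markers (73.5 to 81.4 and 49.6 to 72.5 CPM) were lower without overlap. The sums of the 8 enterocyte markers (668 to 879 and 854 to 976 CPM) and of the 7 microfold markers (1111 to 1381 and 1299 to 1559 CPM) overlapped, although the microfold list had the highest median log2 fold change of the marker lists, 0.39, with 6 of 7 above 0. All members of these 6 lists were tested. Without the block 1 gene of them was called, Malrd1 of the enterocyte list, which rose (adjusted p = 0.0424). Of all tested genes, 0.0596% were called without the block and 0.711% with it. With the replicate block, Muc13 of the enterocyte list (adjusted p = 0.0139), Ccl9 (0.0430), Ccl20 (0.0139) and Ccl6 (8.51e-04) of the microfold list, and Chgb (0.0486), Resp18 (6.62e-05) and Scg5 (0.0460) of the neuroendocrine list were also called higher. So were Cftr (0.00482) and Bpifa1 (0.00439) of the secretory list, while Foxn1 of the cortical list (0.00242) and Hba-a2 of the red cell list (0.0221) were called lower. No marker of these 6 lists was without counts in all libraries, and their part in the claudin values was not tested.

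Of 14 further claudin genes, 13 were in the tables and 10 passed the filter, and their summed TPM was 229 ± 23.7 in WT and 265 ± 32.5 in cKO (exact p = 0.2). The 10 claudins thus held 77.5% ± 1.59 of the family's summed TPM in WT and 77.2% ± 2.02 in cKO. Among the 10 tested further genes 0 passed the test as run for the 10 claudins, against 0.0596% of all tested genes. Of these further genes 3 were above 0 and the median was −0.08, below that of the 10 claudins described here. Cldn13, chosen for mention after its values were seen, was the most abundant of them at 159 to 206 TPM in WT and 191 to 252 TPM in cKO, above Cldn3 in each library, and it lies 29.593 kb from Cldn4 (log2 fold change 0.19, adjusted p = 0.745). Cldn17, Cldn22 and Cldn24 had at most 8 counts in any library and were not tested.

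Neighbouring genes were examined because several claudins lie in clusters. Within 100 kb of Cldn3 and Cldn4, 17 genes were tested, 8 were above 0, their median log2 fold change was −0.0017, and 0 were called with or without the block. Within 100 kb of Cldn6 and Cldn9, 20 genes were tested, 11 were above 0, their median was 0.03, and 1, Cldn9, was called with the block. Over all tested genes 0.0596% were called without the block and 0.711% with it, so few calls can be awaited among so few genes. The claudins counted in these windows, Cldn3, Cldn4, Cldn13, Cldn6 and Cldn9, were all above 0, and the other genes in them were on both sides of 0.

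**Figure D4:**
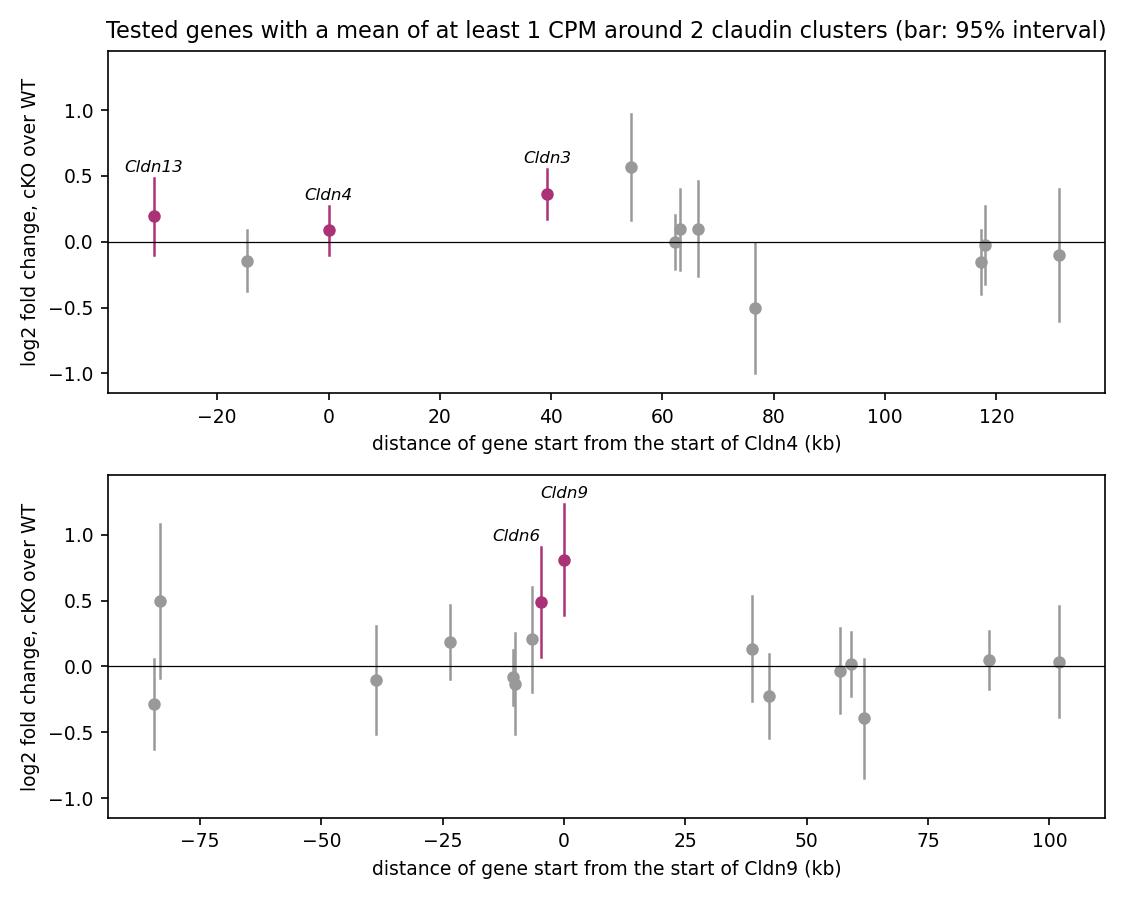
Log2 fold change of cKO over WT, with 95% intervals, of tested genes with a mean of at least 1 CPM around Cldn3 and Cldn4 (top) and around Cldn6 and Cldn9 (bottom), by distance in kb of each gene's start from that of Cldn4 or Cldn9. Claudins are in purple and other genes in grey; Cldn9 at 0.81 has the highest value of the lower panel.

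The partners of claudins in the junction were taken from lists of known junction genes, and 0 genes in them were called in any fit run. The main fit called 0.0596% of all tested genes, and the fit with the block 0.711%. Of 11 other membrane proteins of the tight junction, 10 were above 0 with a median of 0.12. Marveld3, a relative of occludin, had the smallest p (0.33, SE 0.106, adjusted p = 0.409), and occludin itself, Ocln, had 47.3, 48.1 and 43.5 CPM in WT and 50.05, 49.1 and 44.4 in cKO (0.05, adjusted p = 0.932). Of 23 cytoplasmic scaffold and polarity genes, 14 were above 0 with a median of 0.04. Tjp1, which encodes the scaffold ZO-1, had 0.13 (SE 0.0849, adjusted p = 0.717), and Tjap1 had the smallest p of that list (−0.31, SE 0.109, adjusted p = 0.465).

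Among 10 proteins that bind, cut or modify claudins, 7 were above 0 with a median of 0.07. Epcam, which stabilises Cldn7 at the membrane, had 507, 526 and 458 CPM in WT and 589, 525 and 576 CPM in cKO (0.18, SE 0.0808, adjusted p = 0.582). The Epcam groups overlapped, and a link of its RNA to that of Cldn7 was not tested. Epha2, a receptor kinase that phosphorylates claudins, was the smallest p of that list (−0.30, SE 0.0901, adjusted p = 0.359). Of 16 transcription factors of epithelial junction genes, repressors of these genes among them, 9 were above 0 with a median of 0.02. In this mixed list 1 gene was higher and 2 were lower without overlap, against 7.14% and 7.28% of all tested genes. Klf5 had 0.27 (SE 0.101, adjusted p = 0.482). Of 18 genes of adherens junctions and desmosomes, 15 were above 0 with a median of 0.11. Nectin2 had 0.30 (SE 0.0933, adjusted p = 0.401) and Cdh1, the E-cadherin gene, 0.11 (SE 0.0755, adjusted p = 0.743). Without overlap, 4 of these 18 genes were higher and 0 lower. The counts were 2 and 0 of the 11 membrane genes, 3 and 1 of the 23 scaffold genes, and 1 and 1 of the 10 partners.

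**Figure D5:**
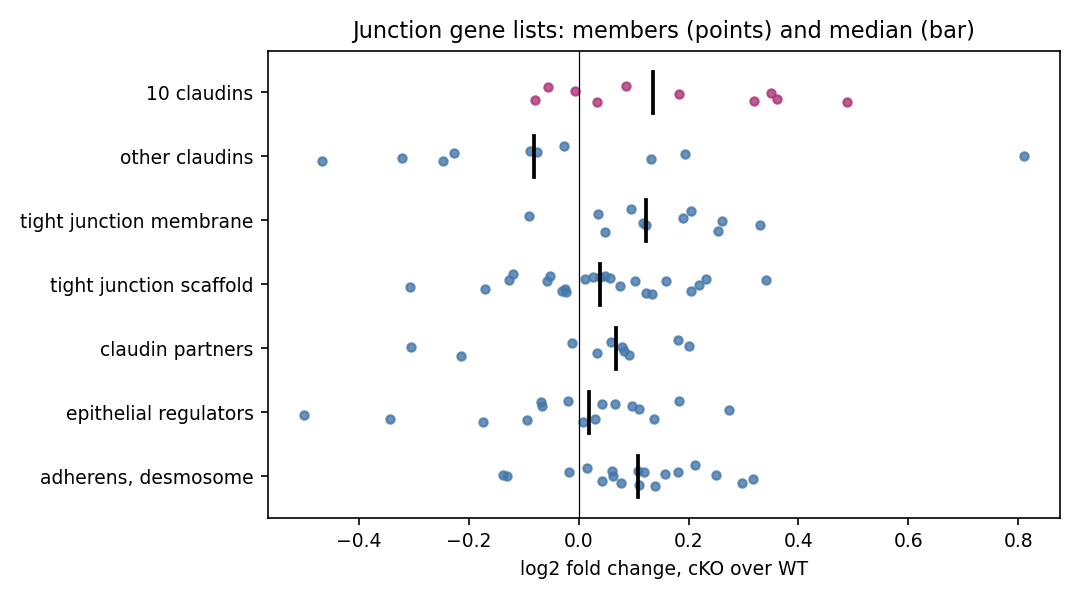
Log2 fold change of cKO over WT for each tested gene of the claudin and junction lists (points, with vertical jitter) and the median of each list (bar). The median of the 10 claudins, 0.13, lies beside those of the other tight junction membrane proteins, 0.12, and of the adherens and desmosome genes, 0.11, and the lone point at 0.81 is Cldn9.

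Across the 6 libraries, the genes whose log2 CPM followed Cldn3 most closely were Iglc1, an immunoglobulin light chain constant region (Pearson r = 0.994), Dmd, the dystrophin gene (0.993), and Gm11405 (0.989). For Cldn4 they were AY358078 (0.996), Gm20547 (0.990) and Cfb, complement factor B (0.987). Of 22023 genes compared, 326 (1.48%) had r over 0.9 with Cldn3 and 316 (1.43%) with Cldn4, so the likeness is a description over 6 libraries that share genotype groups. Gm20547 and Cfb count many of the same reads, because exons of Gm20547 cover 79.5% of the exon bases of Cfb. Cldn4 and Cfb were both lowest in replicate 1 of each group, with Cfb at 46.0, 101 and 69.6 CPM in WT and 56.2, 136 and 129 CPM in cKO.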

How the data were processed

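RNA was measured in 6 libraries, 3 WT and 3 cKO, grouped by the genotype label. The deposited count files hold whole-number, unnormalized read counts per gene. The aligner was TopHat2 2.1.1 on mm10, with SAMtools 1.9, per the submitters' processing notes. Per the file headers, featureCounts 2.0.0 counted exons of the Ensembl release 99 annotation without regard to strand, and a read over several genes was counted for each, so overlapping genes cannot be told apart. The authors' series table holds TPM values made from the same counts, which were equal for the 51810 genes in both. TPM served levels between genes and counts served every test. That table also has 1 column of values that named no sample, which was not used.

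Counts were tested with edgeR 4.0.16 in R 4.3.3 (TMM scaling, filterByExpr, robust quasi-likelihood F test), with Benjamini-Hochberg adjustment over 28543 genes and a threshold of 0.05. Log2 fold changes are cKO over WT, SE is the standard error, and CPM values are TMM scaled. The fit was tested on simulated data. Single values per library were compared by a 2-sided exact permutation test. The alternatives were other scalings and filters, DESeq2 1.42.0, limma 3.58.1 (voom, and log2(TPM + 1)), the replicate block, and leaving out each library. Same-numbered libraries deviated together from their group means (r = 0.245, 0.121 and 0.173 over the tested genes). Differently numbered libraries had r from −0.243 to 0.0896. The replicate block therefore took the numbers to pair the samples, from the data and not from a stated litter or day. The main test and the exact permutation tests left the samples unpaired. The chi-square per gene within groups lay between 14.6 and 25.9, so no 2 libraries were counted as 1. The members, lists and tests were chosen with earlier results of these data known. Named genes are the 10 claudins, Trp53, Epcam, Tjp1, Ocln, Cdh1, in each further junction list any called gene or else the smallest p, and the 3 genes most correlated with Cldn3 and with Cldn4 at a mean of at least 1 CPM. Of the marker lists, those with sums that did not overlap, a called member or a claudin of their own are given.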

Additional observations from a re-analysis of the deposited data

How the results depend on the processing

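The number of claudins called was 0 in every alternative run, and 7 or 8 of the 10 were above 0. Trp53 stayed called and lower. The number of all genes called, 7 higher and 10 lower, became 127 and 48 with DESeq2, 0 and 5 with limma-voom, 0 and 6 without robust estimation, 108 and 52 without a filter, 138 and 65 with the replicate block, and 0 and 1 with limma on log2(TPM + 1). Leaving out 1 library gave 0 to 7 higher and 5 to 9 lower, with 1 and 6 without WT replicate 1, 0 and 6 without WT replicate 3, and 2 and 5 without cKO replicate 2. The cause of these moves was not tested. The log2 fold change of Cldn5, −0.01, was above 0 with limma-voom (0.0077), with the replicate block (0.0049), with limma on TPM (0.0147), and without WT replicate 2 (0.26) or cKO replicate 2 (0.20), in a range of −0.19 to 0.26 as 1 library was left out. In percentage points of the summed TPM, the difference in the share of Cldn5 was 0.0143 without WT replicate 2 and 0.0112 without cKO replicate 2, against −0.0350 (range −0.0790 to 0.0143). Without cKO replicate 1 that of Cldn7 was −0.232, against 0.482 (range −0.232 to 1.42), and that of Cldn8 −0.0210, against 0.0292 (range −0.0210 to 0.0799). The log2 ratio of Cldn3 to Cldn4 differed by 0.13 to 0.38 and the summed TPM by 0.17 to 0.20 on the log2 scale as 1 library was left out. With the replicate block, the exact sign-flip p was 0.25 for the ratio and 0.25 for the summed TPM, the smallest that 3 pairs can give. The block changed no call among the 10 claudins. The same alternatives were run for Cldn9, Cldn13 and the named junction genes after seeing the data. None of these genes changed direction, and only Cldn9 changed its call, with the block, with DESeq2 and without a filter.

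Cldn8, with 59 to 144 counts, had coefficients of variation of 20.5% in WT and 40.1% in cKO, and Cldn5, with 53 to 106 counts, 31.1% and 26.5%, which limits what can be seen for both. The fitted intervals exclude a rise of Cldn4 above 1.21-fold and of Cldn1 above 1.16-fold. Groups of 3 libraries are too small to test single libraries as outliers.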
